A study of Mus musculus with 8 samples.

Results

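The genes of the proteasome, the protease that degrades ubiquitin-tagged proteins, were followed in smooth muscle cells sorted from the ascending aorta of mice. Members were the protein-coding genes whose symbol starts with Psma, Psmb, Psmc, Psmd or Psme, with pseudogenes left out. Of 45 such genes in the annotation, 43 had values among the 11447 gene identifiers of the deposited tables, and Psma8 and Psmb11 had none. By role, the 43 genes comprise 7 alpha and 7 beta subunits of the core, 9 base and 8 lid subunits of the regulatory particle, 5 interferon-inducible genes, 3 chaperones of base assembly and 3 other activator genes. The remaining gene, Psmc3ip, matches by its symbol only and encodes no subunit. Values in all 8 libraries were listed for 39 genes, and 40 passed the filter on low values used in the tests. The 3 genes that did not pass, Psmb7, Psmb9 and Psmc3ip, are described by their listings.

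In the proteasome, rings of alpha and beta subunits form a barrel whose beta subunits cut proteins. The regulatory particle on its ends has a lid and a base, binds ubiquitin chains and unfolds substrates with the ATPases of the base. Interferons raise the genes of the immunoproteasome, whose beta subunits replace the constitutive catalytic ones and favour peptides for presentation on MHC class I, and of the PA28 activator built from Psme1 and Psme2. Most constitutive subunit genes are known to be transcribed together, through the factor encoded by Nfe2l1.

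The series compared smooth muscle cells of Apoe-/- mice with those of Apoe-/- mice whose smooth muscle cells also lack the TGF-beta receptor gene Tgfbr2, in a model of aortic aneurysm. Cells of the digested ascending aorta were sorted for GFP, taken by the submitters as smooth muscle cells, and profiled in 10x Genomics Chromium droplets. The second genotype is labelled TGFBetaRiSMC-Apoe. Both genotypes, written here as Apoe and KO, thus carry the Apoe deletion, and all libraries are GFP-sorted. Each genotype has 1 library on the diet labelled ND, an abbreviation that the labels do not spell out, and 1 library each after 1, 2 and 4 months of high fat diet (1M, 2M and 4M). The labels used here give no age or sex, no Cre driver and no number of animals per library. Values of a single library therefore have no replicate error, and the p-values below measure the spread of 8 libraries around a model. Changes in RNA per cell and in the mix of cells within a library cannot be told apart in library sums.

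The libraries held 13056 cells in all, between 1127 and 2659 each, with 9407155 to 19719335 unique molecular identifiers (UMIs). Median depth per cell ran from 6966 UMIs in Apoe 4M to 10988 in KO 4M, and any pair of libraries shared at most 9 cell barcodes. Tgfbr2 was listed at 39.2 to 54.6 UMIs per 1000000 (CPM) in the Apoe libraries of the time-course table and has no values for the KO libraries, so it gives no check of the KO labels. Of 10 contractile smooth muscle markers, all were listed in 7 libraries, at 2.63% to 5.03% of UMIs, and KO 4M held 0.175% with Des listed at 0. Of 10 chondrocyte markers, all were listed in KO 4M, at 3.21% of UMIs, against 0.438% in Apoe 4M, 0.1499% in KO 2M and at most 0.00983% in the other 5 libraries. Col2a1, the cartilage collagen, stood at 11749 CPM in KO 4M and 2545 in Apoe 4M. The 6 fibroblast markers, as far as listed, made up 1.38% of UMIs in KO 4M, 0.523% in Apoe 4M, 0.377% in KO 2M and at most 0.0999% in the others. KO 4M therefore stands apart in these markers, and their part in the subunit values at 4M was not tested. Lists for macrophages, Schwann cells, lymphocytes and endothelium were used to find foreign cells holding at least 3 markers of 1 list: KO 1M had 22, all macrophage-marked. In the other 7 libraries at most 2 markers of a list had values, since genes in under 5% of cells are at 0, so no cell there could reach 3 and their foreign cells cannot be counted this way.

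Stretches near the start of the genes that the results turn on are shown with the letters of regulatory motifs they hold. RefSeq windows (GRCm38.p6) from 250 bases before to 30 bases from the start were available for 37 of the 43 genes, and not for Psmb2. Both strands were searched for the interferon-stimulated response element core (GAAA, then any 2 bases, then GAAA), the gamma-activated site core (TTCNNNGAA), the antioxidant response element core (TGACNNNGC) and the CCAAT box (CCAAT). Each stretch has 30 bases on the strand of the gene, with the matched letters in capitals. They lie at chr17:34198088-34198117 (Psmb8, plus strand), chr14:55578493-55578522 (Psme1, plus), chr14:54618023-54618052 (Psmb5, minus), chr11:107479278-107479307 (Psmd12, plus), chr11:101316187-101316216 (Psme3, plus) and chr11:30771758-30771787 (Psme4, plus).
Psmb8, gamma-activated site core: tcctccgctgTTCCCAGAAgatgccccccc
Psme1, interferon-stimulated response element core: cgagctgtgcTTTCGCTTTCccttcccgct
Psmb5, antioxidant response element core: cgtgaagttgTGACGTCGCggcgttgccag
Psmd12, antioxidant response element core: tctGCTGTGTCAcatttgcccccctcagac
Psme3, CCAAT box: ggagtgccggcgATTGGctgtgacgcaact
Psme4, antioxidant response element core: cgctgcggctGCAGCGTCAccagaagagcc

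The Psmb5 match reads along the gene, and those of Psme1, Psmd12, Psme3 and Psme4 lie on the opposite strand. The gamma-activated site core reads the same on both strands, so the Psmb8 match has no orientation. A gene counted here if any of its windows matched, while the shares set against it count single windows. Among the 37 genes the interferon-stimulated response element core occurred in 4 (10.8%, against 3.28% of all 32851 windows). These were Psmb3, Psmd4, Psmd9 and Psme1. The gamma-activated site core occurred in 2, Psmb8 and Psmd2 (5.41%, against 7.83%). The antioxidant response element core occurred in 6 genes (16.2%, against 11.5%) and the CCAAT box in 14 (37.8%, against 36.1%). The windows of Psmb10, Psme2 and Psmd13 held none of these letters. A match describes the letters in the window and no more.

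On ND, 1M and 2M the largest single-diet difference among members belonged to an interferon-inducible gene, Psmb10 on ND and 1M and Psmb8 at 2M. The interferon-inducible genes listed in both libraries of a diet were higher in KO on those diets and lower at 4M. Levels are given as UMIs per 1000000 UMIs of the library (CPM), and single-diet differences as KO minus Apoe on the log2(CPM + 1) scale, with no test. Psme1, which encodes the alpha subunit of PA28, had levels of 79.0, 76.7, 80.8 and 86.7 CPM in the Apoe group (ND, 1M, 2M and 4M in this order) and at 105, 108, 130 and 42.6 CPM in KO. KO was above every Apoe library on ND, 1M and 2M and below all of them at 4M, with differences of 0.41, 0.49, 0.67 and -1.01. The exact Poisson 95% intervals at 4M, which cover counting error only, ran from 80.9 to 92.9 in Apoe and from 39.6 to 45.7 in KO.

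Psme2, which encodes the PA28 beta subunit, stood at 78.1, 82.9, 99.6 and 97.7 CPM in Apoe, and KO had 109, 107, 147 and 77.8 CPM. Its differences were 0.47, 0.36, 0.56 and -0.33. The sign at 4M held when libraries were scaled by median-of-ratios size factors, which set the median gene near no difference, but the value shrank to -0.07. For Psme1 the value at 4M was then -0.75.

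Psmb10, the immunoproteasome counterpart of Psmb7, stood at 13.3, 14.5, 25.8 and 27.1 CPM in Apoe, and KO had 27.4, 29.97, 52.6 and 20.2 CPM. KO was higher on ND, 1M and 2M, with differences of 0.99, 1.00 and 1.00, and lower at 4M, with -0.41 (-0.16 under median-of-ratios size factors). Apoe 2M and 4M lay above Apoe ND and 1M and above KO 4M.

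Psmb8, the counterpart of Psmb5, was listed at 0 in Apoe ND and 1M, where under 5% of cells held a UMI. It stood at 9.03 and 12.6 CPM in Apoe 2M and 4M and at 5.51, 10.3, 23.7 and 7.32 CPM in KO, with differences of 1.299 at 2M and -0.71 at 4M. KO 2M was the highest library. As a share of Psmb8 and Psmb5 UMIs together, Psmb8 made up 4.40% in Apoe 2M (exact Clopper-Pearson 95% interval 3.79% to 5.07%) and 10.2% in KO 2M (9.34% to 11.2%). At 4M the shares were 8.93% in Apoe (7.45% to 10.6%) and 6.09% in KO (5.13% to 7.18%). KO ND and 1M had 2.61% and 5.18%, and the KO 1M share was 3.97% without the 22 macrophage-marker cells.

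Psmb9, the counterpart of Psmb6, was listed in KO 2M and KO 4M alone, at 7.29 and 6.23 CPM. Psmb7, a constitutive catalytic subunit, was listed in the 4M pair alone, at 6.91 CPM in Apoe and 8.74 CPM in KO. Since a catalytic subunit is needed in every cell, its listing at 0 elsewhere need not mean low expression, and no exchange ratio of Psmb9 with Psmb6 or of Psmb10 with Psmb7 was computed. Psme2b, a near-identical copy of Psme2 with which it could share reads, stood at 19.6, 20.1, 12.0 and 21.9 CPM in Apoe and 27.1, 24.6, 14.6 and 9.12 CPM in KO, so its split from Psme2 is uncertain.

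**Figure D1:**
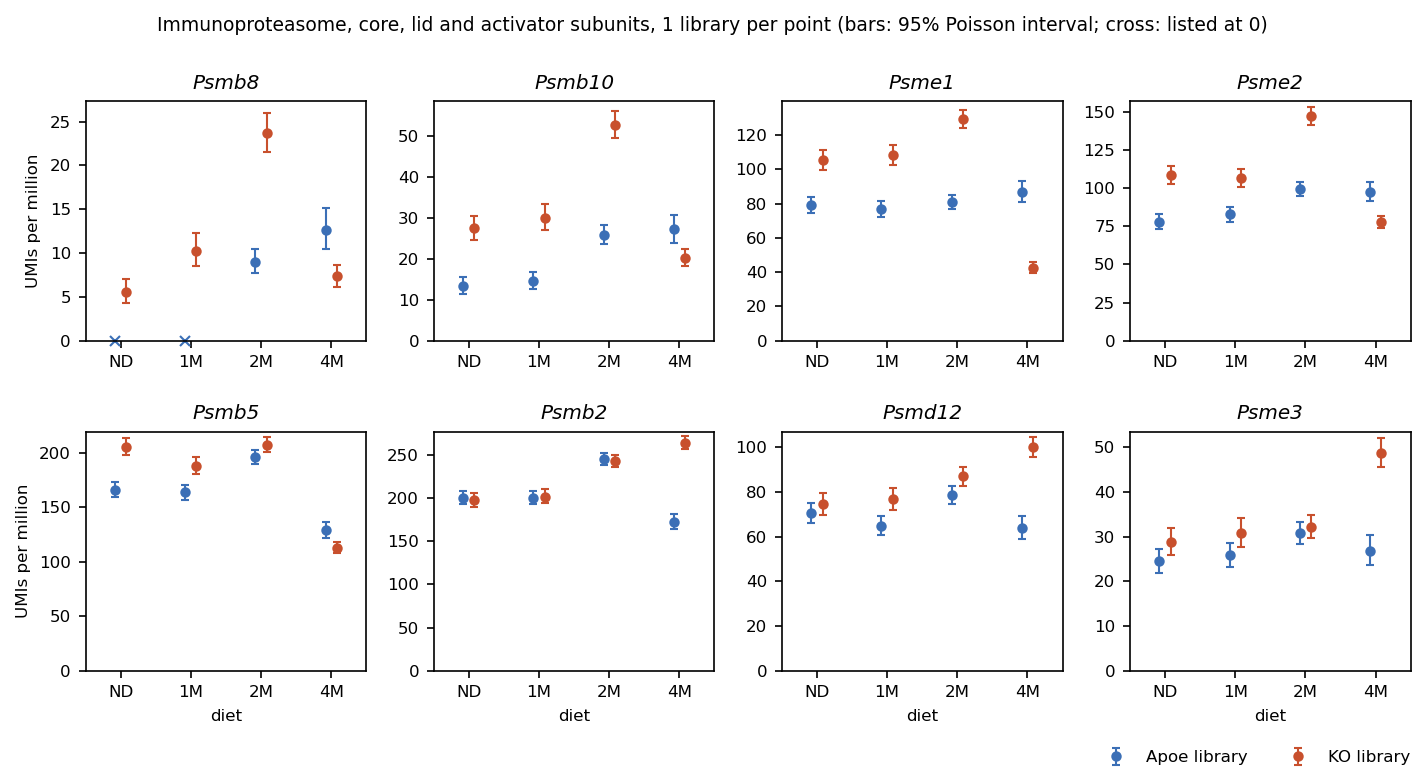
CPM (vertical axis, starting at 0) of 8 subunit genes by diet (horizontal axis), with 1 point per library, Apoe in blue and KO in orange; bars are exact Poisson 95% intervals and crosses mark a gene listed at 0. Psme1 in KO lies between 105 and 130 on ND, 1M and 2M and at 42.6 on 4M, while Psmb2 differs between the genotypes on 4M, with 173 in Apoe and 264 in KO.

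Among core, base and lid subunits, single-diet differences were small and mostly of 1 sign before 4M. The 30 such genes listed in every library had medians of 0.14, 0.12 and 0.09 on ND, 1M and 2M. Above 0 were 25, 27 and 22 of the 30, against 4153 of 9608, 4969 of 9348 and 4124 of 8711 of all genes. For the 2124 to 2150 genes in the same range of expression the medians were -0.01, 0.02 and 0.00. The SD over the 30 subunits was 0.11, 0.10 and 0.13, against 0.42, 0.34 and 0.47 over the genes of like expression. At 4M the subunits spread more, with a median of -0.08 and an SD of 0.28, against -0.28 and 1.09 for the genes of like expression. Subunits of 1 complex are no independent points, so these spreads are given as a description.

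The scale matters at 4M. On the CPM scale the median of all 8624 genes listed in both libraries was -0.24 there, so a subunit at 0 lay above most genes. On this scale 10 of the 30 subunits were above 0, against 3238 of the 8624 genes. Under median-of-ratios size factors the median of all genes was 0.02 and that of the 30 subunits was 0.18. Here 24 of the 30 were above 0, against 4398 of the 8624 genes. On ND, 1M and 2M the sign of the subunit median was the same under both scalings, with 0.18, 0.11 and 0.12 under the second.

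**Figure D2:**
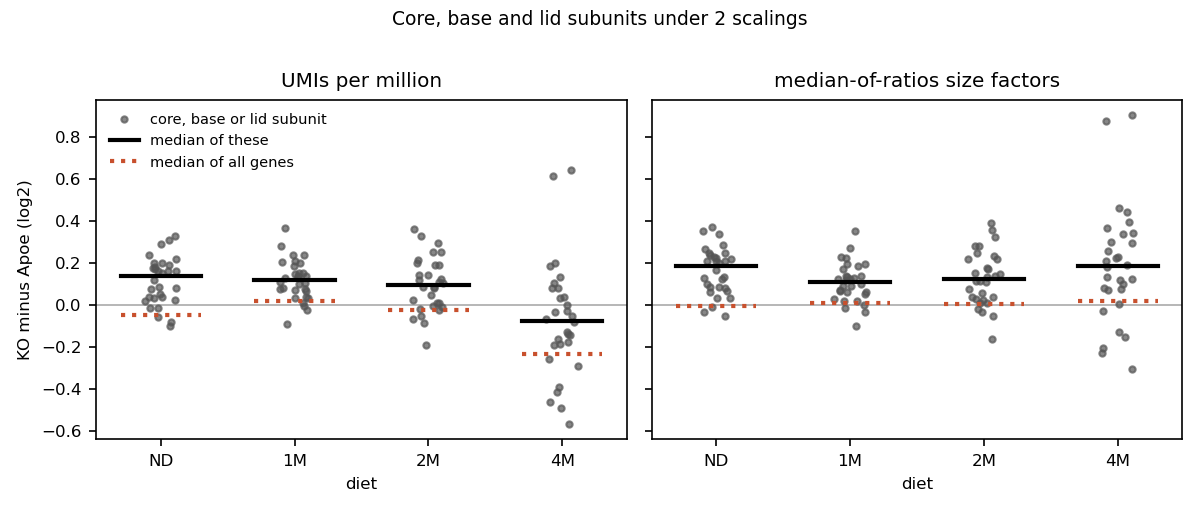
KO minus Apoe (log2, vertical axis) of each of the 30 core, base and lid subunits (points) on each diet (horizontal axis), with libraries scaled to CPM on the left and by median-of-ratios size factors on the right; solid lines are medians of the subunits and dotted lines medians of all genes listed in both libraries. At 4M the subunit median is -0.08 on the left and 0.18 on the right, and lies above the median of all genes in both.

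Summed over the subgroup, the 7 alpha subunits made up 1283, 1253, 1459 and 1241 CPM in Apoe (from ND to 4M) and 1369, 1322, 1557 and 1135 CPM in KO. The listed beta subunits of the core made up 1306, 1300, 1555 and 1191 CPM in Apoe and 1408, 1360, 1596 and 1207 CPM in KO. In both subgroups the 2M libraries of both genotypes were the highest, and KO exceeded Apoe on ND, 1M and 2M. At 4M the alpha sum was lower and the beta sum slightly higher in KO.

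The 9 base subunits made up 997, 1005, 1131 and 1009 CPM in Apoe and 1102, 1107, 1245 and 921 CPM in KO. For the 8 lid subunits the sums were 839, 809, 984 and 780 CPM in Apoe and 903, 904, 1029 and 751 CPM in KO. In both, as in the alpha subunits, KO was higher on ND, 1M and 2M and lower at 4M. The listed interferon-inducible genes (3 in Apoe ND and 1M, 4 in Apoe 2M and 4M and KO ND and 1M, 5 in KO 2M and 4M) together gave 170, 174, 215 and 224 CPM in Apoe and 247, 255, 361 and 154 CPM in KO, higher in KO on ND, 1M and 2M and lower at 4M. All listed members together gave 4774, 4723, 5530 and 4631 CPM in Apoe and 5230, 5155, 6000 and 4376 CPM in KO. The log2 ratio of these sums at 4M was -0.08, and 0.18 under median-of-ratios size factors, so the direction of the total at 4M depends on the scaling.

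**Figure D3:**
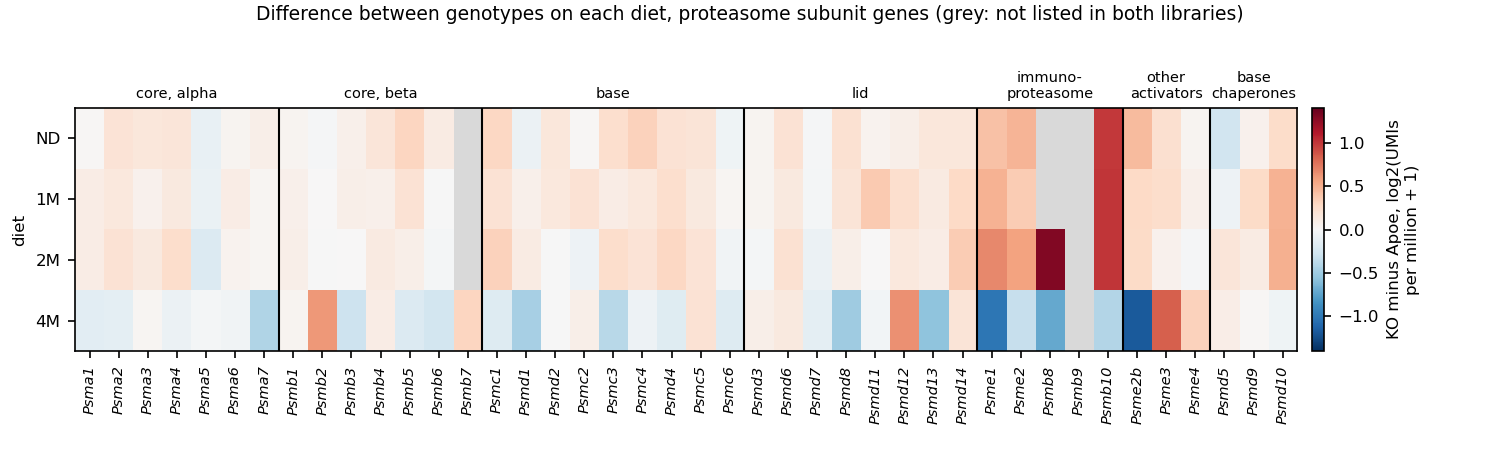
KO minus Apoe in log2(CPM + 1) for each subunit gene (columns, grouped by role) on each diet (rows); red is higher in KO, blue lower, and grey marks genes not listed in both libraries. Where listed, the interferon-inducible genes are red on ND, 1M and 2M, up to 1.299 for Psmb8 at 2M, and blue at 4M, down to -1.01 for Psme1.

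Among the alpha subunits, which form the outer rings and gate the barrel, Psma3 stood at 259, 267, 302 and 243 CPM in Apoe against 289, 279, 333 and 248 CPM in KO. Psma7 stood at 215, 218, 271 and 249 CPM in Apoe against 228, 222, 276 and 186 CPM in KO. The genotypes overlapped in both genes, and Psma7 had the larger gap at 4M, -0.42. Psmb4, a structural beta subunit, stood at 184, 179, 192 and 161 CPM in Apoe against 208, 188, 209 and 173 CPM in KO, higher in KO on each diet. Psmb6, the catalytic subunit with caspase-like activity, stood at 267, 281, 332 and 255 CPM in Apoe against 290, 280, 327 and 213 CPM in KO, without a common direction.

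In the base, whose ATPases unfold substrates, Psmc3 stood at 143, 160, 162 and 150 CPM in Apoe against 169, 171, 193 and 114 CPM in KO. Psmd1, a scaffold of the base, stood at 97.2, 93.9, 92.4 and 102 CPM in Apoe against 91.8, 99.0, 100 and 73.3 CPM in KO. KO 4M was the lowest library in both, with differences of -0.39 and -0.47 there. In the lid, Psmd6 stood at 90.6, 89.4, 99.1 and 78.0 CPM in Apoe against 104, 98.4, 115 and 85.6 CPM in KO, higher in KO on each diet. Of the chaperones that assemble the base, Psmd10 stood at 22.7, 19.8, 22.5 and 23.6 CPM in Apoe against 27.3, 28.3, 32.1 and 22.5 CPM in KO. Psmd9 stood at 26.8, 25.7, 32.7 and 33.9 CPM in Apoe against 28.0, 31.1, 35.4 and 34.4 CPM in KO, so only small gaps separated the genotypes at 4M.

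By single genes, 1, 1 and 4 members were higher in KO by more than 0.5 on ND, 1M and 2M, against 4.64%, 4.04% and 6.8% of all genes, and 0 members were lower by that much, against 9.23%, 4.93% and 13.8%. On ND and 1M the gene was Psmb10, and at 2M the genes were Psmb8, Psmb10, Psme1 and Psme2. At 4M, 3 of 41 members were higher by that much (Psmb2, Psmd12 and Psme3), against 17.0% of all genes, and 4 were lower (Psmb8, Psmd13, Psme1 and Psme2b), against 35.6%. Of the 39 members listed in every library, 28 were higher in KO on all of ND, 1M and 2M, against 26.6% of all such genes, and 19 of these were lower at 4M, against 17.6% for the whole pattern. Under median-of-ratios size factors 9 of these 19 were below 0 at 4M and 10 above. The 9 genes above Apoe on all 4 diets were Psma3, Psmb1, Psmb4, Psmc5, Psmd6, Psmd9, Psmd12, Psmd14 and Psme3. These patterns rest on the sign of small differences, and they share the scaling of each library.

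The difference between genotypes over all 4 diets was tested with limma on the mean deposited log2 value per library, with diet as a factor. An effect is the KO minus Apoe difference of these means, in which cells at 0 count, so it is no fold change. None of the 40 members tested passed an adjusted p of 0.05 over 9253 genes, where 14 genes (0.151%) did. At an unadjusted p under 0.05 there were 18 members, against 14.0% of all genes. That count was 0 on CPM of summed UMIs (pseudocount 1 or 10), 3 with median-of-ratios size factors, 5 with thinned cells and 6 with one scale for all cells, while 979 to 1254 of all 9253 genes passed in these settings. The effect was above 0 for 39 of the 40 members and for 60.8% of all genes, with medians of 0.10 and 0.01. The number above 0 was 29 on CPM of summed UMIs (pseudocount 1), 30 with cells thinned to 2905 UMIs each, and 38 with median-of-ratios size factors. Over all genes the median effect was -0.079, -0.005 and -0.003 in these settings, so most genes lay below 0 there.

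By role, effects lay between 0.02 and 0.14 in the 9 base subunits, between 0.04 and 0.15 in the 8 lid subunits, between 0.00 and 0.16 in the 7 alpha subunits and between 0.05 and 0.16 in the 6 beta subunits tested. Psmd4, the ubiquitin receptor of the base, had 0.12 ± 0.02 (SE, adjusted p = 0.157, limma) and was higher in KO on 4 of 4 diets in mean log2 value, but its difference at 4M was -0.16 on the log2(CPM + 1) scale. Psma2, an alpha subunit, had 0.14 ± 0.02 (adjusted p = 0.157, limma), again higher on 4 of 4 diets in mean log2 value and at -0.13 on the log2(CPM + 1) scale at 4M. Psmc4 and Psmc5, ATPases of the base, had 0.13 ± 0.03 and 0.14 ± 0.04 (adjusted p = 0.208 and 0.287, limma). Psma5, another alpha subunit, was the 1 member with an effect under 0, at -0.003 ± 0.045.

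Without the 4M pair the same fit called 1 member of 40, above 0, against 2.59% of all genes (0.973% above 0). Psme1 then had 0.24 ± 0.025 (SE, adjusted p = 0.0498, limma, 3 diets, higher in KO on 3 of 3), and with the 4M pair 0.13 ± 0.09 (adjusted p = 0.583). The call lies at the threshold and was made in a setting that drops the library that stands apart. Psme2 had 0.21 ± 0.03 (adjusted p = 0.0708), Psmb10 had 0.14 ± 0.02 (0.0628) and Psmb8 had 0.07 ± 0.01 (0.0762) in this limma fit, so they did not pass. The Psmb8 value rests in part on Apoe ND and 1M, where the gene is at 0 because under 5% of cells held a UMI. At an unadjusted p under 0.05 there were 27 of 40 members, against 28.7% of all genes.

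Whether the genotypes differed otherwise at 4M than on the other diets was tested with a term for the 4M pair, added after the values were seen. The spread in this limma fit comes from ND, 1M and 2M alone, with 2 residual degrees of freedom, and the 4M pair is assumed to vary like them. It called 9 of 40 members, 8 above 0 and 1 below 0, against 30.2% of all genes (20.4% above and 9.86% below 0), and 21 members at an unadjusted p under 0.05, against 46.7%, so a call in this comparison was common. KO 4M is also the library with 0.175% contractile and 3.21% chondrocyte UMIs, against 2.63% and 0.438% in Apoe 4M, and the part of these values in the term was not tested. The direction of the calls depends on the scaling: CPM of summed UMIs with pseudocount 1 called 2 members above 0 and 7 below (911 and 2517 of all genes), and thinned cells called 1 above and 11 below (797 and 1164). All 4 interferon-inducible genes tested were below 0 on the deposited log2 scale and on these scales. For Psmb8 this value rests in part on Apoe ND and 1M, where the gene is listed at 0. Of the 30 core, base and lid subunits 21 were above 0 on the deposited log2 scale, where 55.4% of all genes were. The number was 17 with median-of-ratios size factors, 11 with one scale for all cells, 6 on CPM of summed UMIs and 5 with thinned cells. Over all genes the median value was 0.015 on the deposited log2 scale. In the other settings it was -0.060, -0.017, -0.290 (pseudocount 1) and -0.023 in the same order, so most genes lay below 0 there.

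Psmb2, a beta subunit of the core, had the largest value among members. Its level was 200, 200, 245 and 173 CPM in Apoe and 198, 202, 243 and 264 CPM in KO. The genotypes lay within 3 CPM of each other on ND, 1M and 2M, and KO was higher at 4M, with 1 library each. The difference at 4M minus the mean of the other diets was 0.63 ± 0.04 (SE, adjusted p = 0.00552, limma). In the 10 settings run it was above 0 and called in 10, at 0.41 to 0.86.

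Psmd12, a lid subunit, stood at 70.5, 65.0, 78.7 and 63.8 CPM in Apoe, and KO had 74.6, 76.7, 87.0 and 100 CPM. KO 4M was the highest library and Apoe 4M the lowest, and the 4M term was 0.32 ± 0.02 (adjusted p = 0.00591, limma). It was called in 8 of 10 settings and above 0 in 10, with the values from 0.16 to 0.73.

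Psme3, which encodes the nuclear PA28 gamma activator, stood at 24.5, 25.9, 30.8 and 26.9 CPM in Apoe, and KO had 28.9, 30.8, 32.2 and 48.7 CPM. The 4M term was 0.23 ± 0.03 (adjusted p = 0.0135, limma), called in 9 of 10 settings. Psme4, the PA200 activator, was at 58.0, 56.0, 58.8 and 49.3 CPM in Apoe and 59.7, 58.9, 58.3 and 62.0 CPM in KO, with 0.21 ± 0.03 (adjusted p = 0.0158, limma), called in 7 of 10 settings. In both genes KO 4M was the highest library.

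Psme1 was the 1 member with a called value below 0, at -0.44 ± 0.05 (adjusted p = 0.0142, limma), and it was called in 10 of 10 settings, at -1.53 to -0.43. The other 4 called members, Psma5, Psma6, Psmb1 and Psmc6, had values of 0.10 to 0.24 and were named after their values were seen. Each was called in 5 of 10 settings, the main fit included. These 5 all used means of the deposited log2 values. The settings that changed the scaling or thinned the cells did not call these members. Psma6, Psmb1 and Psmc6 turned below 0 in 3 or 4 settings. Psmd13 and Psmd8 of the lid went the other way, with levels in KO 4M of 48.0 and 96.3 CPM against 71.7 and 136 CPM in Apoe 4M. Their values of -0.12 ± 0.03 and -0.16 ± 0.05 did not pass (adjusted p = 0.0667 and 0.0790, limma), and each was called, below 0, in 4 of 10 settings.

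**Figure D4:**
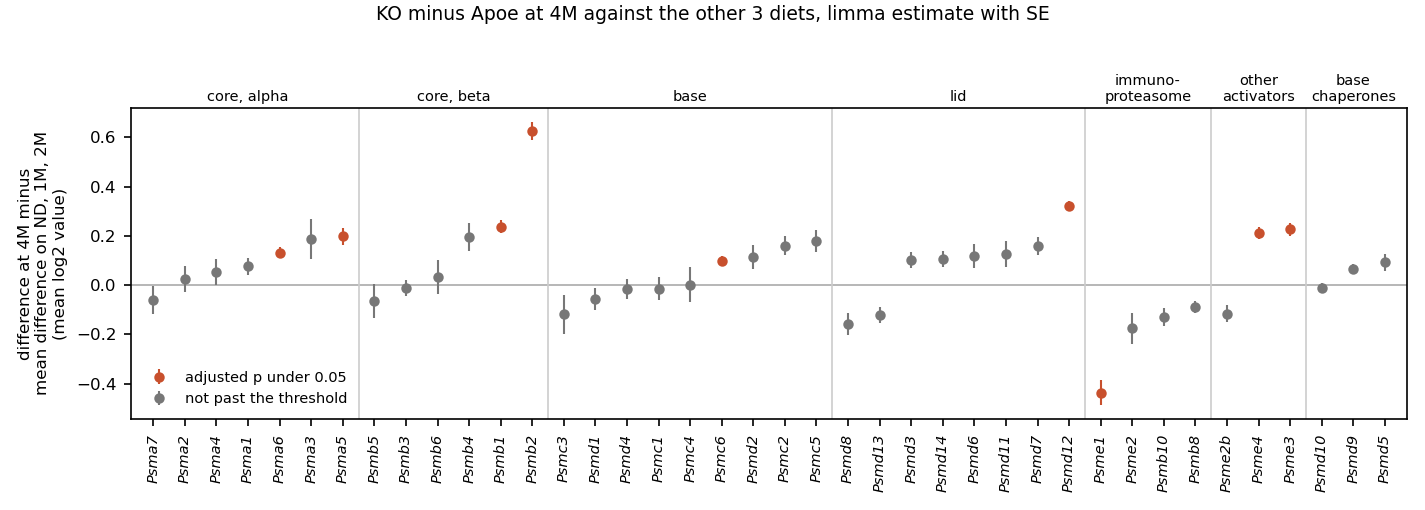
The genotype difference (KO minus Apoe, mean log2 value per library) at 4M minus its mean over ND, 1M and 2M for the 40 members tested, grouped by role (horizontal axis); points are limma estimates, bars their SE, and orange marks an adjusted p under 0.05. Psmb2 lies highest at 0.63 and Psme1 lowest at -0.44.

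Across months of diet, 1 of 40 members was called in a slope shared by the genotypes, against 5.55% of all genes (0.151% rising, 5.4% falling). Psmb5, the catalytic subunit with chymotrypsin-like activity and the main target of proteasome inhibitors, stood at 166, 164, 196 and 129 CPM in Apoe, with KO at 206, 188, 207 and 113 CPM. The 4M library was the lowest in both genotypes. Its slope was -0.086 ± 0.018 per month (SE, adjusted p = 0.0498, limma), and it was below 0 in 22 of 22 alternatives and called in 1 of them. The 1 alternative with the call took each library's values from its other deposited table, and leaving out any one of the 8 libraries ended the call.

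No member differed between the genotypes in slope by limma (0 of 40), as for all 9253 genes (0.0% called). At an unadjusted p under 0.05 there were 3 members (Psmb2, Psmd5 and Psmd12), against 21.1% of all genes. Within KO alone, 3 of 40 members were called, against 22.5% of all genes (6.8% rising, 15.7% falling), on the deposited log2 scale, with slopes of -0.10 for Psmb5, -0.05 for Psmd13 and 0.03 for Psmd5, a chaperone of base assembly. The calls changed with the setting. With rank of time 0 members were called, against 1 rising and 86 falling of all 9253 genes. Without ND, 1M, 4M or the KO 4M library alone, 0 members and 0 of all genes were called. Without 2M 9 members were called, against 1210 rising and 1850 falling of all genes. Values from the other table called 7 members, against 332 and 1590. Median-of-ratios size factors called Psmd12, Psmd5 and Psme3, against 1099 and 1388. Within Apoe alone 0 of 40 members and 0.0% of all genes were called, and 7 members had an unadjusted p under 0.05, against 12.6%.

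Cells within a library were then compared by their share of contractile gene UMIs, in 3 equal groups per library, a split chosen after the values were seen. Cells are no replicates, so this is a description of the libraries. In Apoe 4M the chondrocyte genes made up 1.13% of UMIs in the group lowest in contractile share and 0.0205% in the highest. Core, base and lid subunits together stood at 3600 CPM in the lowest and 4797 CPM in the highest group of that library, and at 3864 and 4303 CPM in KO 4M. In the other 6 libraries the sums of the lowest and the highest group were 4178 and 4687 CPM (Apoe ND), 4220 and 4609 (Apoe 1M), 5170 and 5196 (Apoe 2M), 4614 and 4992 (KO ND), 4740 and 4790 (KO 1M) and 5363 and 5535 (KO 2M). The group lowest in contractile share was thus the lower of both in all 8 libraries, most in Apoe 4M. The groups are not alike between libraries. The highest group of KO 4M held 0.527% contractile and 2.51% chondrocyte UMIs, and the lowest of Apoe 4M 0.742% and 1.13%. In log2(CPM + 1), lowest minus highest, the median of listed members was -0.37 in Apoe 4M and -0.17 in KO 4M. For all genes it was -0.08 and -0.11. In the other 6 libraries the member medians ran from -0.19 to 0.03, against 0.06 to 0.15.

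The genes that stood out in KO 4M did not all stand out in the group of Apoe 4M lowest in contractile share. Psmb2 was at 164 CPM there and 177 CPM in the highest group, and Psmd12 at 57.5 and 74.5 CPM. Psme3 was at 31.3 and 26.4 CPM, and Psme1 at 73.6 and 98.2 CPM. Psmb2 in KO 4M was at 265, 266 and 262 CPM from the lowest to the highest group, above all groups of other libraries. The lowest group of KO 2M came close, with 259 CPM against 226 in its highest group. KO 1M had the same direction (224 against 190), as did Apoe 2M (250 against 235) and Apoe 1M (204 against 201). The order was reversed, by little, in Apoe ND (203 against 207) and KO ND (197 against 200). Psmb8 was higher in the lowest group in Apoe 4M, at 19.2 against 8.81 CPM, and in KO 2M, at 39.4 against 11.9 CPM. In KO 4M Psmb8 was lower in that group, at 7.15 against 8.70 CPM.

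**Figure D5:**
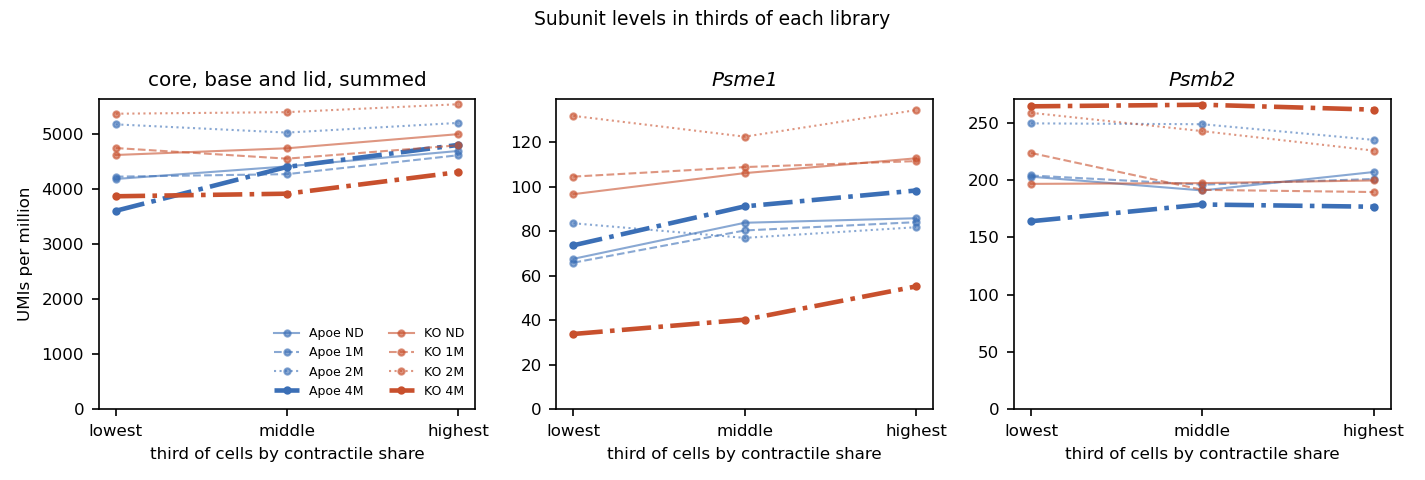
Summed core, base and lid subunits, Psme1 and Psmb2 in CPM (vertical axes, starting at 0) in 3 equal groups of the cells of each library, ordered by the share of contractile gene UMIs (horizontal axis); Apoe is blue, KO orange, and 4M has thick lines. In Apoe 4M the summed subunits run from 3600 to 4797 from the lowest to the highest group, and Psmb2 in KO 4M stays between 262 and 266.

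Other genes of the pathway came from 6 lists. In the genotype effect 0 of their tested genes were called by limma. The largest effects per list were 0.48 for B2m, 0.34 for Ubb (a polyubiquitin gene), 0.22 for Sem1 (a small lid component), 0.13 for Ubxn4 (a p97 cofactor), -0.30 for Sqstm1 (an autophagy receptor for ubiquitinated cargo) and -0.43 for Maff (a small Maf protein). In the slope per month, the called genes described here fell: Vcp, the p97 unfoldase, by 0.09 per month (adjusted p = 0.0332, limma), Usp14, a deubiquitinase of the proteasome, by 0.06 (0.0407), Mafk, a small Maf partner of NRF factors, by 0.10 (0.0386) and Zfand5, a proteasome activator, by 0.16 (0.0471). Each was below 0 in 22 of 22 alternatives and called in 3 to 6 of them. In 5 of the lists, the calls were 2 of 13 shuttling factors and deubiquitinases, 1 of 8 of the p97 complex, 1 of 10 regulators, 0 of 10 assembly factors and other parts, and 0 of 13 for antigen processing and interferon signalling. Of all genes, 5.55% were called in this slope (5.4% falling), so these counts do not set the lists apart.

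Of the assembly genes, Pomp, the maturation chaperone of the core, had a genotype effect of 0.19 ± 0.03 (adjusted p = 0.157, limma). Its levels were 179, 176, 197 and 179 CPM in Apoe and 205, 205, 237 and 189 CPM in KO, so KO was higher on 4 of 4 diets. Nfe2l1, whose product drives subunit genes, had 0.02 ± 0.05 (adjusted p = 0.869, limma), with 116, 116, 108 and 147 CPM in Apoe and 123, 122, 123 and 87.1 CPM in KO.

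B2m, the light chain of MHC class I, stood at 798, 946, 854 and 1059 CPM in Apoe and 1225, 1570, 1642 and 809 CPM in KO. Without the 4M pair its genotype effect was 0.67 ± 0.05 (adjusted p = 0.0397, limma), where 2.59% of all genes passed, and its 4M term was -0.74 ± 0.11 (adjusted p = 0.0221, limma). In the same fit without the 4M pair Mafk had -0.29 (adjusted p = 0.0469, limma) and Usp14 0.15 (0.0496), while the class I heavy chain genes H2-K1 and H2-D1 had -0.007 and 0.13 and did not pass (0.935 and 0.283). Irf1, an interferon-induced transcription factor, went the other way, at 89.2, 122, 159 and 80.3 CPM in Apoe and 45.0, 96.6, 77.7 and 25.7 CPM in KO, with -0.25 ± 0.04 without the 4M pair (adjusted p = 0.0753, limma).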

How the data were processed

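Single-cell RNA-seq of 8 libraries was analysed. Reads were processed with UMI-tools, STAR and featureCounts (Subread 1.6.0) on GRCm38, per the submitters' processing notes. The 6 tables hold log2 values per cell, deposited by the authors as log2 of 1 plus scaled UMIs, with TMM scaling per the labels; genes in under 5% of a library's cells are at 0. Each library is in 2 tables scaled separately. Each cell's scale was read from its lowest values, and 100% of entries were whole UMIs within a tolerance of 0.01. UMIs were summed per library, and CPM intervals are exact Poisson at 95%. Such intervals cover counting error only. No doublet caller was run.

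Mean deposited log2 values per library were fitted with limma 3.58.1 in R 4.3.3 (genotype with diet as a factor, slope per month with genotype as a factor, difference of slopes), with Benjamini-Hochberg adjustment over 9253 genes seen in 5% of cells on average. The fits were tested on simulated data. Other steps used Python 3.11.15, numpy 2.4.6, scipy 1.17.1, pandas 2.3.3 and matplotlib 3.10.9. A single-diet difference counted from 0.5. Alternatives changed the scaling, pseudocount (1 or 10), filter, table, cells, depth and libraries. The term for the 4M pair, median-of-ratios scaling of sums and the split of cells by contractile share were added after the data were seen.

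The members and lists were chosen with earlier results of these data known. Named were members past the threshold, the 2 per role with the largest genotype effect and the 2 with the largest 4M difference, the interferon-inducible genes with the subunits they replace, and from each pathway list the called genes and the largest effect. Psma5, Psma6, Psmb1, Psmc6, Psmd4, Psmd8, Psmd14, Pomp, Nfe2l1 and Irf1 were named after their values were seen. Some pathway genes are not reported here.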

Additional observations from a re-analysis of the deposited data

Results flagged for a closer look

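For 9 members the genotype difference at 4M differed from that on the other 3 diets by a test of the difference itself, with an adjusted p under 0.05 in limma. The value was 0.63 for Psmb2, 0.32 for Psmd12, 0.24 for Psmb1, 0.23 for Psme3, 0.21 for Psme4, 0.20 for Psma5, 0.13 for Psma6, 0.098 for Psmc6 and -0.44 for Psme1, in mean log2 units. Of all genes, 30.2% passed the same test. Psmb1, Psma6 and Psmc6 turned below 0 under other scalings, and neither they nor Psma5 were called there. The 4M pair is 1 library per genotype, and the part that the low contractile marker share of KO 4M has in these values was not tested.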

How the results depend on the processing

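The genotype effect called 0 members, and 1 (Psme1) without the 4M libraries; leaving out KO 4M alone is the same fit, since its partner is then alone on its diet, and also gives 1. The slope per month called 1 member, 9 with values from the other table, 2 (Psmc6 and Psme4) without KO 4M, and 0 with each other alternative: UMI sums plus 1 or 10, one scale for all cells, median-of-ratios size factors, no filter, genes listed in all 8 libraries, marker cells left out, thinned cells, rank of time, each diet left out and each other library left out. Of all 9253 genes, the slope called 14 rising and 500 falling. These counts were 25 and 1321 with values from the other table, and 14 and 338 without KO 4M. The cause was not tested.

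Genotype effects turned below 0 as follows. With UMI sums plus 1 they were -0.0692 for Psma7, -0.0425 for Psmb6, -0.0880 for Psmd1, -0.0420 for Psmd13, -0.0162 for Psmd5 and -0.0474 for Psme2b. With UMI sums plus 10 they were -0.0663, -0.0408, -0.0795, -0.0330, -0.0102 and -0.0129 for the same genes. With one scale for all cells Psma7 had -0.0510, Psmb6 -0.0271 and Psmd1 -0.0133, and with median-of-ratios size factors Psmd1 had -0.00690. With thinned cells Psma7 had -0.0825, Psmb6 -0.0441, Psmd1 -0.0394, Psmd9 -0.000376 and Psme2b -0.00900. Without the ND libraries Psma7 had -0.000877 and Psme2b -0.00444, and without the 4M libraries or KO 4M Psmd5 had -0.000401.

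The log2 ratio of the summed subunits under median-of-ratios size factors was 0.179 on ND, 0.148 at 2M and 0.182 at 4M, where the direction reversed. On ND it was 0.155 with contractile, chondrocyte and mitochondrial genes left out of the total. Under median-of-ratios size factors 2 members were higher by more than 0.5 on ND, against 562 of all 9608 genes. At 2M 5 members were higher, against 668 of 8711 genes. At 4M 5 of 41 members were higher and 2 lower, against 2268 and 2135 of 8624 genes. The Psmb8 share in KO 1M was 3.97% without marker cells. Of the results that answer a comparison, 60 kept direction and side of the threshold, 31 were marked as moved and 1 as reversed. No paired analysis was possible because the labels number no replicates, with 1 library for each genotype and diet; the genotype fit sets the genotypes against each other within diets through the diet factor.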
